A study of Mus musculus with 6 samples.

Results

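The MAP kinase phosphatases are a family of 10 dual-specificity phosphatase (DUSP) genes, Dusp1, Dusp2, Dusp4, Dusp5, Dusp6, Dusp7, Dusp8, Dusp9, Dusp10 and Dusp16, and they are described here in bone marrow erythroblasts of mice with and without P38α. Their probes were chosen by the gene name in the array annotation, which gave 13 of the 55681 non-control probes on the array. The family was proposed with the genotype differences of these same arrays already known. Fold changes and adjusted p-values of the members are therefore given as a description, and no conclusion rests on them.

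The arrays came from C57Bl/6 mice in which Mx1-Cre, an interferon-inducible Cre that acts in all hematopoietic cells and in some other tissues, excised a floxed P38α gene. The study used mice of both sexes, and the sex of each array mouse was not used here. Mx1-Cre P38α fl/+ mice (P38α+/−, n = 3) were the controls and Mx1-Cre P38α fl/fl mice (P38α−/−, n = 3) the group labelled as deleted, so the controls also carried Cre and had lost 1 allele. All mice received 3 injections of 300 µg PolyIC at 6 to 8 weeks of age, rested for 6 weeks, and were given 100 mg/kg phenylhydrazine (PHZ) once, which lyses red cells. CD71highTer119+ cells were sorted from bone marrow on day 4 of recovery, and RNA of each mouse was hybridized to 1 one-colour Agilent whole mouse genome array.

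MAP kinases (ERK, JNK and P38) are switched on by phosphorylation of a threonine and a tyrosine in their activation loop, and MAP kinase phosphatases switch them off by removing both phosphates. Many of these phosphatases are themselves induced by the kinases they silence and so form negative feedback loops. By location and preference they are usually divided into inducible nuclear enzymes (Dusp1, Dusp2, Dusp4 and Dusp5), cytoplasmic enzymes that prefer ERK (Dusp6, Dusp7 and Dusp9) and enzymes that prefer JNK and P38 (Dusp8, Dusp10 and Dusp16).

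Each probe is a 60-base oligonucleotide, so what was measured at each gene is the abundance of 1 short stretch of its transcript. The first 30 bases, 5′ to 3′, are given for every probe of the 6 genes with at least 1 probe in the genotype comparison. They show which stretch each value stands for, with mm9 positions from the array annotation. The Dusp1 probe lies on the minus strand of chromosome 17, where the annotation places 11 of its bases at 26642526 to 26642536. The Dusp2 probe lies on chromosome 2 (127163930 to 127163989, plus strand) and the Dusp6 probe on chromosome 10 (98729985 to 98730044, plus strand). Dusp8 is read by probe a (chromosome 7, 149267534 to 149267593, minus strand) and probe b (149265961 to 149266020), and Dusp16 by probe a (chromosome 6, 134668003 to 134668062, minus strand) and probe b (134665783 to 134665842). The Dusp7 probes, a (chromosome 9, 106277985 to 106278044, plus strand) and b (106277943 to 106278000), share 16 bases of the genome.
Dusp1: gcgtatgagagtttttacctttatttattt
Dusp2: gtgggcatctcgctgtaattggtgctgaaa
Dusp6: catttggtggatgcaacaggttgagaggaa
Dusp7 probe a: cacacatatatatcccgagccagcaacggg
Dusp7 probe b: tttgtgaccctacatacatatatatatata
Dusp8 probe a: aaagctctgtttttactgtctggtatttaa
Dusp8 probe b: attatgtaaatttacctcctgtctgtcatt
Dusp16 probe a: ggcatgaagagagcccctttgaaaagcagt
Dusp16 probe b: ctgtcagtccttcgtcactaatgtcgtatc

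The share of all probes well above background (the scanner's call that a spot stands clear of local background) was 53.1%, 38.2% and 36.9% on the P38α+/− arrays and 28.9%, 35.9% and 35.1% on the arrays labelled P38α−/−. Levels are given on a log2 scale, with 0 at each array's 75th percentile of the 15540 probes that stood clear of background on every array. The genotype comparison took in 18780 probes, those for which 1 genotype or both had all 3 arrays well above background. The median tested probe differed by −0.16 on the log2 scale between genotypes. The brighter probe of Mapk14, the gene of P38α, read 0.33, 0.58 and 0.61 in P38α+/− and 0.76, 1.19 and 1.20 in the other group, and its second probe differed by 0.01 ± 0.42 (SE of the fit). Neither was lower in the P38α−/− group, and the sources used here do not place these probes against the deleted exons, so they give no check of the labels. The study examined the deletion by other means, on the locus and on the protein, and those data were not analysed here. The group is called the arrays labelled P38α−/−, or the labelled group. All 8 early and all 8 late erythroid markers were well above background on all 6 arrays, with a summed log2 level of the early markers of 6.10 to 6.44 in P38α+/− and 6.21 to 6.29 in the other group. That sum is carried by its brightest genes, and Kit, the stem cell factor receptor of early erythroid cells, read −3.27, −3.57 and −4.75 against −4.98, −5.14 and −6.32 (log2 fold change −1.62 ± 0.51 SE, limma adjusted p = 0.160, or 0.0480 with the replicate block). In bulk RNA, fewer cells of a type and less RNA per cell cannot be told apart.

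Dusp8 and Dusp16, of the JNK and P38 class, were higher on every array labelled P38α−/−, by 4.49-fold and 4.56-fold at the Dusp8 probes and 5.78-fold at Dusp16 probe b. Dusp6 read lower on every such array, by 3.19-fold, and so did Dusp2, which was well above background on 1 of the 3, and both missed the threshold. Of the 13 probes, 5 (those of Dusp1, Dusp6 and Dusp8 and probe b of Dusp16) were well above background on all 6 arrays, 5 on some arrays and 3 on none.

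Of the 7 tested member probes, 2 (Dusp8 probe b and Dusp16 probe b) were called, both higher in the arrays labelled P38α−/−, at an adjusted p of at most 0.05 (limma with Benjamini-Hochberg adjustment over all tested probes) and a fold of at least 2. The share of all tested probes called was 0.149%, 28 probes, of which 21 were higher. This split moved with the scaling, to 470 higher of 809 with the percentile over all probes, 14 of 15 with quantile normalization and 2 of 7 with centring on spike-in spots, and with the replicate block it was 17 of 64. All 3 arrays of the labelled group lay above all 3 controls at 3 of the 7 member probes (6.93% of tested probes) and below them at 3 (20.8% of tested probes). Before adjustment, a p of 0.05 or less with this fold was reached by 5 of the 7 member probes and by 1702 (9.06%) of all tested probes.

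**Figure D1:**
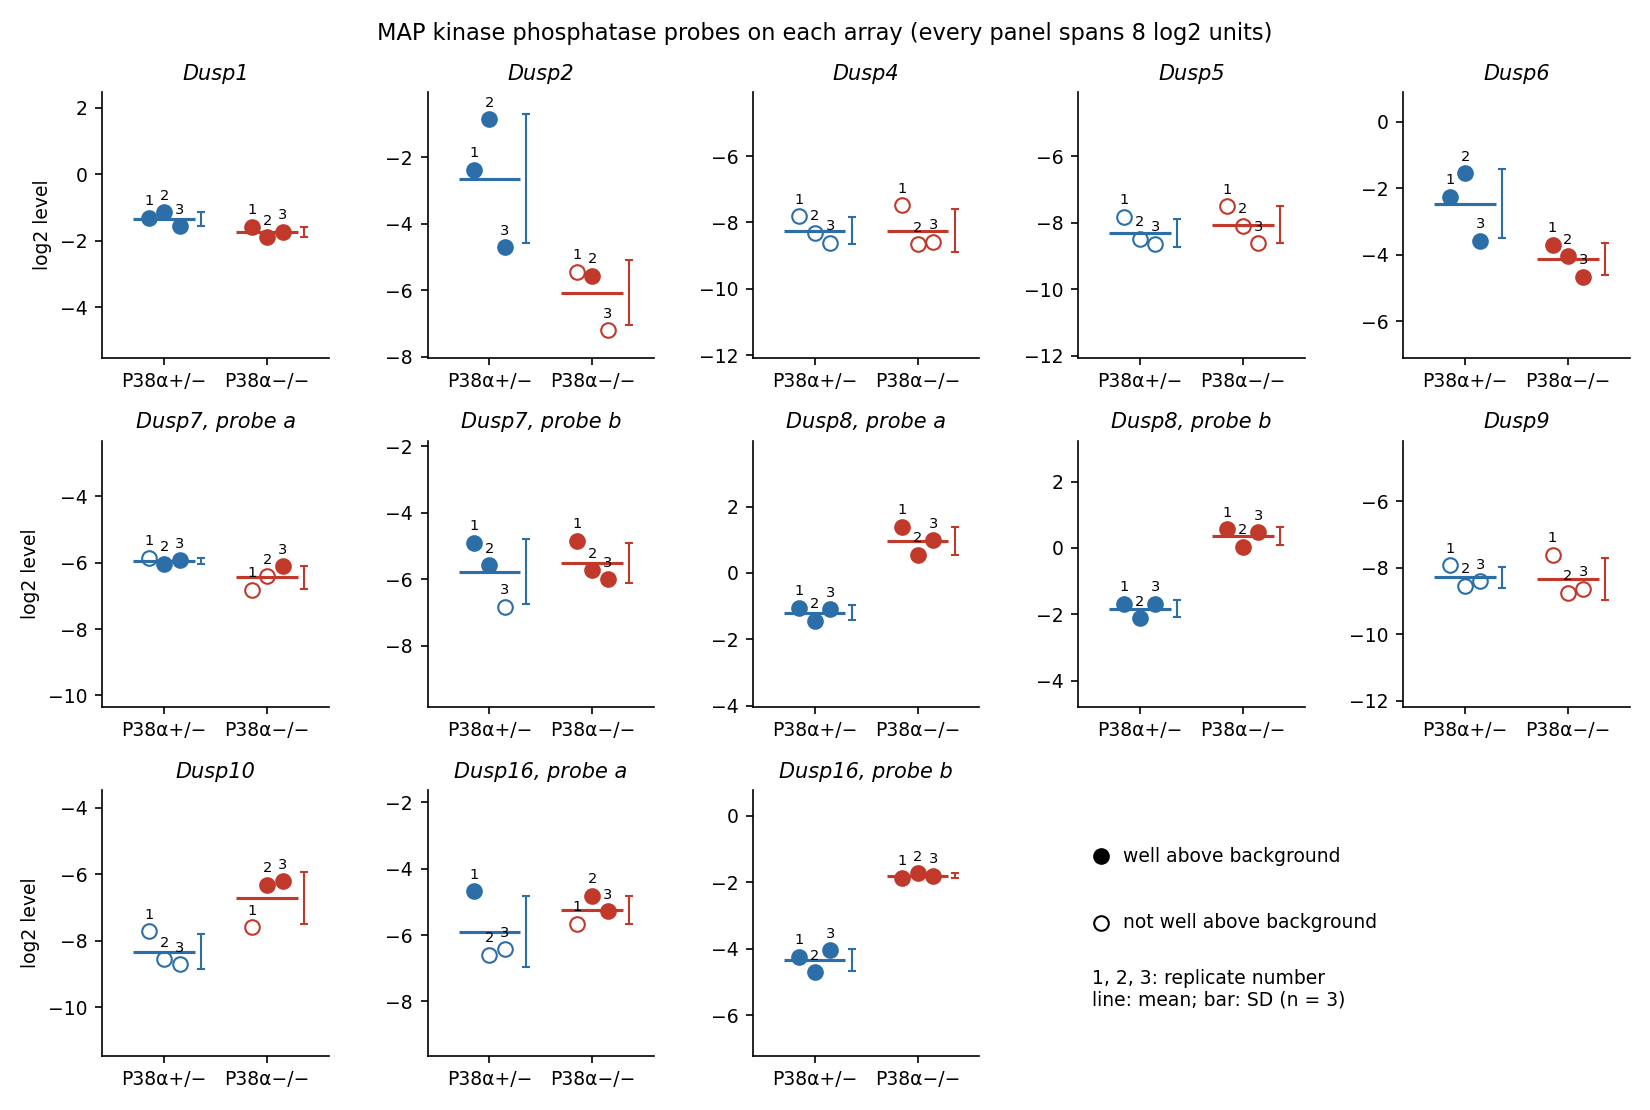
Log2 level (y axis, relative to the array's 75th percentile) of all 13 probes of the 10 phosphatase genes in P38α+/− (blue) and P38α−/− (red) arrays, with points numbered by replicate, filled where well above background, lines at the mean and bars for the SD (n = 3). Dusp8 and Dusp16 probe b are higher on all 3 P38α−/− arrays, Dusp2 and Dusp6 lower on all 3, and Dusp4, Dusp5 and Dusp9 open on every array.

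Among the phosphatases that prefer JNK and P38, Dusp8, which dephosphorylates JNK and P38, was higher at both of its probes. Before scaling, its probe a gave signals of 394, 480 and 700 in P38α+/− and 1957, 2304 and 2694 in the arrays labelled P38α−/−. On the log2 scale these were −1.04, −1.45 and −1.09 against 1.39, 0.55 and 0.98, so the lowest labelled array stood 1.59 above the highest control, more than the whole range within either genotype. Probe b, on another stretch of the transcript, read −1.69, −2.12 and −1.68 against 0.56, 0.04 and 0.48. Its gap between genotypes was 1.72, and on both probes replicate 2 was the lowest array of its genotype.

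The log2 fold change was 2.17 ± 0.25 (SE) at Dusp8 probe a, which missed the threshold (limma adjusted p = 0.0575), and 2.19 ± 0.22 at probe b, which passed it (adjusted p = 0.0347). Relative to the median probe the differences were 2.33 and 2.35. Within the replicate-numbered pairs of mice the difference at probe b was 2.25, 2.16 and 2.16. Over the 17 alternative settings the values stayed between 1.96 and 2.65 at probe a and between 1.99 and 2.67 at probe b, with adjusted p from 2.1e-05 to 1.00 at probe b. The replicate block called both probes (adjusted p = 0.0480 for each).

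Dusp16, a phosphatase that likewise prefers JNK and P38, was read by probe b at −4.24, −4.71 and −4.05 in P38α+/− and at −1.87, −1.73 and −1.81 in the labelled group. The labelled arrays lay within 0.14 of each other and 2.18 above the highest control. The log2 fold change was 2.53 ± 0.20 (SE; limma adjusted p = 0.0199), and the difference within the numbered pairs was 2.37, 2.97 and 2.25. With the replicate block the adjusted p was 0.0521, just above the threshold, and over 17 settings the log2 fold change stayed between 1.73 and 3.01 with adjusted p from 4.2e-06 to 0.823.

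Probe a of Dusp16 did not share this pattern. It was well above background on 1 P38α+/− array and on 2 arrays labelled P38α−/−, was not tested, and its pair differences were −0.99, 1.77 and 1.16. The genotypes overlapped, with levels of −6.59 to −4.67 in P38α+/− and −5.67 to −4.82 in the other group. The statement for Dusp16 therefore rests on probe b, which lies 3′ of probe a in the transcript (from base 4755 against base 2535).

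Dusp10, a further member of this class, was well above background on replicates 2 and 3 labelled P38α−/− and on no other array. Its level was −8.71 to −7.72 in P38α+/− and −7.60, −6.32 and −6.22 in the labelled group, where only replicates 2 and 3 give a measured level. No fold is given, since the lower bound on it was under 1, and no order is read among the arrays that were not well above background.

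All calls among the members depended on which mice were included. Without P38α+/− replicate 1 or 2, or without any 1 of the 3 arrays labelled P38α−/−, 0 of the 7 member probes were called, and without P38α+/− replicate 3 the count was 2. In these fits limma gave 4 or 5 member probes, and between 6.81% and 12.8% of all tested probes, an unadjusted p of at most 0.05 with the fold. Over all tested probes these fits called 10, 0, 0, 0, 0 and 106 probes, in the order P38α+/− replicate 1, replicate 2, then the 3 labelled arrays and last P38α+/− replicate 3. The log2 fold changes themselves moved little, between 1.96 and 2.38 at Dusp8 probe a, 2.04 and 2.35 at probe b and 2.35 and 2.67 at Dusp16 probe b.

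**Figure D2:**
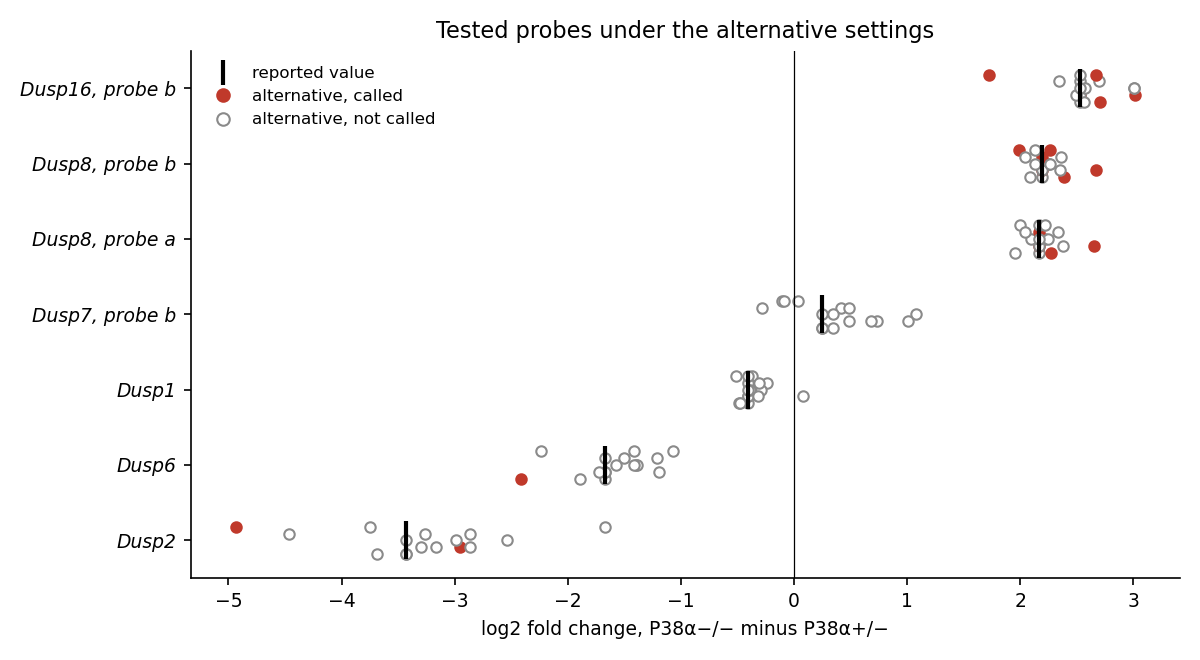
Log2 fold change (x axis, P38α−/− minus P38α+/−) of the 7 tested probes under every alternative setting, with a black line at the reported value, filled red points for settings that called the probe and open points for those that did not. Dusp8 and Dusp16 stay at 1.73 or above, Dusp2 and Dusp6 at −1.07 or below, and Dusp7 and Dusp1 have settings on both sides of 0.

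Dusp8 and Dusp16 were the genes with a called probe, both higher in the labelled group, and the 250 bases before their starts (RefSeq, GRCm38.p6) are therefore shown, with any cAMP response element (CRE, TGACGTCA, which reads the same on both strands and is bound by CREB and ATF factors, some of them P38 and JNK substrates) in capitals. The stretches are chr7:142095285-142095534 and chr6:134792629-134792878, both on the minus strand.
Dusp8: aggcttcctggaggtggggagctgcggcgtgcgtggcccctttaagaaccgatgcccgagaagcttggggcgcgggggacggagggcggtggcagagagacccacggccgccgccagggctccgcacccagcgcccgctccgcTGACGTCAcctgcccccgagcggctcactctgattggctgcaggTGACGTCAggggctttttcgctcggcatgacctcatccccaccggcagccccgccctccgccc
Dusp16: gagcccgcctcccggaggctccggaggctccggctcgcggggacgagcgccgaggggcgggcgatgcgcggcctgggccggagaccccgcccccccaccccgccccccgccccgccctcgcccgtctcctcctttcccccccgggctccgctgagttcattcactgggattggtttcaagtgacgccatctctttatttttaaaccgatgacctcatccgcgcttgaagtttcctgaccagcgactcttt

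The Dusp8 stretch held 2 CRE motifs, starting 107 and 63 bases before the start, and the Dusp16 stretch held 0. Of the 8 members with a promoter entry, Dusp8 and Dusp1 held the motif, and it was found in 1.55% of all 32851 promoters of this length. The AP-1 motif (TGANTCA, either strand, with no overlap with the CRE letters) was found in 0 of the 8 members and in 6.75% of all promoters. Such matches describe the sequence and are not evidence of binding, and a link to the genotype differences was not tested.

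Among the inducible nuclear phosphatases, Dusp1, which acts on P38, JNK and ERK and is an immediate early gene, was well above background on all 6 arrays. It read −1.30, −1.14 and −1.55 in P38α+/− and −1.58, −1.90 and −1.73 in the labelled group. The groups did not overlap, but by a gap of only 0.02, and the log2 fold change was −0.40 ± 0.18 (SE; limma adjusted p = 0.259), or −0.24 relative to the median probe. It was negative in 16 of 17 alternative settings and 0.079 with the percentile over all probes, where the median probe stood at 0.32. No direction is read for Dusp1.

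Dusp2, a nuclear phosphatase described mainly in activated lymphoid and myeloid cells, showed the widest spread over the arrays among the 13 probes. Its signals before scaling were 157, 725 and 56.9 in P38α+/− and 17.1, 33.1 and 9.18 in the labelled group. The log2 levels were −2.37, −0.85 and −4.71 against −5.45, −5.57 and −7.21, and in the labelled group only replicate 2 was well above background. The control arrays thus spanned 3.86, more than the 0.73 that parted the genotypes.

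The probe entered the comparison through the controls, and 2 of the 3 labelled arrays give only an upper bound on its level, so the fitted values are no measured fold. The fitted log2 fold change was −3.43 ± 1.00 (SE; limma adjusted p = 0.151), and the numbered pairs gave −3.08, −4.72 and −2.50, of which pair 2 had both arrays well above background. It was called in 2 of 16 alternative settings, with the percentile over all probes (−2.95, adjusted p = 0.00152) and with array weights (−4.93, adjusted p = 0.0231), and adjusted p over all settings ran to 0.825. The value was −2.54 without P38α+/− replicate 2 and −4.47 without replicate 3. With normexp background correction it shrank to −1.67.

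Dusp4 and Dusp5, both nuclear and both known as ERK-induced genes (Dusp5 is selective for ERK), were not well above background on any array, and the same held for Dusp9. The levels of these 3 probes lay between −8.76 and −7.49 on all arrays, overlapped between genotypes and carry no information on genotype at this signal.

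Among the cytoplasmic ERK phosphatases, Dusp6, a feedback inhibitor whose transcript is widely read as a gauge of ERK activity, was well above background on all arrays. It read −2.26, −1.54 and −3.59 in P38α+/− and −3.70, −4.04 and −4.66 in the arrays labelled P38α−/−. All 3 labelled arrays were below all 3 controls, by a gap of 0.12, and replicate 2 was the highest and replicate 3 the lowest control, the same order as for Dusp2.

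The log2 fold change of Dusp6 was −1.67 ± 0.54 (SE; limma adjusted p = 0.167), and the pairs differed by −1.45, −2.50 and −1.07. Array weights were the one setting of 17 that called it (−2.41, adjusted p = 0.0244), and the values ran from −2.41 to −1.07 over all settings, with adjusted p from 0.0244 to 1.00. The call was not reached with the replicate block (limma adjusted p = 0.0840). The array weights were 3.94 for P38α−/− replicate 3, the lowest array for Dusp6, and 2.14 for P38α+/− replicate 2, the highest. The other arrays had weights from 0.47 to 0.77, and the Dusp2 call used the same weights.

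The Dusp7 probes disagreed. Probe b read −4.91, −5.59 and −6.83 against −4.85, −5.73 and −6.00, the genotypes overlapped, and the log2 fold change was 0.25 ± 0.54 (SE; limma adjusted p = 0.832), with 3 of 16 alternative settings on the other side of 0. Probe a, well above background on 2 control arrays and 1 labelled array and not tested, lay between −6.03 and −5.86 in P38α+/− and between −6.82 and −6.11 in the other group. No direction can be given for this gene.

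**Figure D3:**
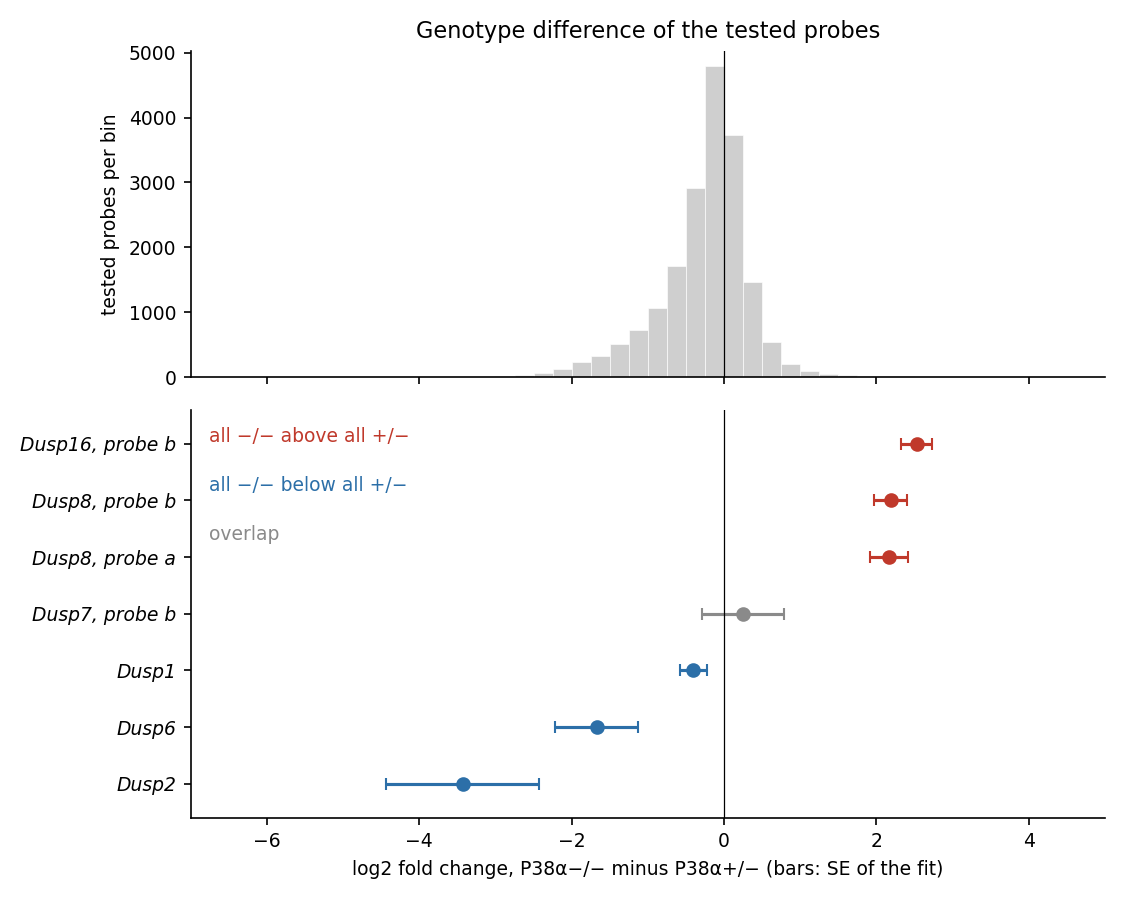
Upper panel: number of tested probes (y axis) per bin of 0.25 in log2 fold change between P38α−/− and P38α+/− (x axis). Lower panel: the 7 tested phosphatase probes on the same axis with the SE of the fit, red where all 3 P38α−/− arrays lay above all 3 controls, blue where all lay below and grey where they overlapped; the Dusp8 and Dusp16 probes lie between 2.17 and 2.53 and Dusp2 at −3.43.

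On the control arrays Dusp2 and Dusp6 ranked in the same order as the summed levels of several lists of blood cell markers. Genes outside these lists had this order too, among them Jun (0.71, 1.48 and −0.83), which was higher in the labelled group. Of 13 neutrophil markers, 13 were tested, 0 were called by limma (12 had an unadjusted p of at most 0.05) and 11 were lower on all arrays labelled P38α−/−, with a median log2 fold change of −1.36 against −0.14 over all tested genes. For this and the lists below, 2816 of all 14207 tested genes were lower and 1055 higher on every such array. Counts at the unadjusted p in the lists use no fold, so the share given above for probes with a fold does not apply to them. The matching share over all tested genes was not counted, so no excess over it is read from these counts. The neutrophil markers had a summed log2 level of 7.51, 8.17 and 6.79 in P38α+/− and 6.36, 6.39 and 5.89 in the other group. With the replicate block 1 of them, Cxcr2, was called (log2 fold change −1.79, limma adjusted p = 0.0480). Here too replicate 2 was the highest and replicate 3 the lowest control.

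B cell markers were sparser, with 3 of 8 tested, 0 called (2 at the unadjusted p) and 1 lower on every labelled array. That gene, Ms4a1, entered the comparison through the controls and was well above background on 0 labelled arrays. Their summed level was 0.17, 0.80 and −2.96 against −2.15, −3.32 and −3.78, so the highest and lowest controls were again replicates 2 and 3. T or NK cell markers (3 of 8 tested, 0 called, 1 at the unadjusted p) summed to 0.58, 1.42 and −0.49 against −0.49, −0.78 and −0.90. This sum is carried mainly by Nkg7, its brightest gene (log2 fold change −1.67). The other tested markers, Cd3e (−0.32) and Cd4 (−0.17), differed less. Monocyte or macrophage markers (8 of 10 tested, 0 called, 2 at the unadjusted p, with Cd163 and Mrc1 not well above background on any array) summed to 0.54, 0.85 and −0.44 against −0.10, −0.47 and −1.14. The part of these cells in the Dusp2 and Dusp6 values was not tested.

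Dusp8 and Dusp16 were higher in the group where these marker sums were lower, and the part of other cells in these values was not tested either. Megakaryocyte or platelet markers (3 of 6 tested, 0 called, 1 at the unadjusted p) summed to 0.65 to 1.06 in P38α+/− and 0.87 to 1.21 in the other group.

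**Figure D4:**
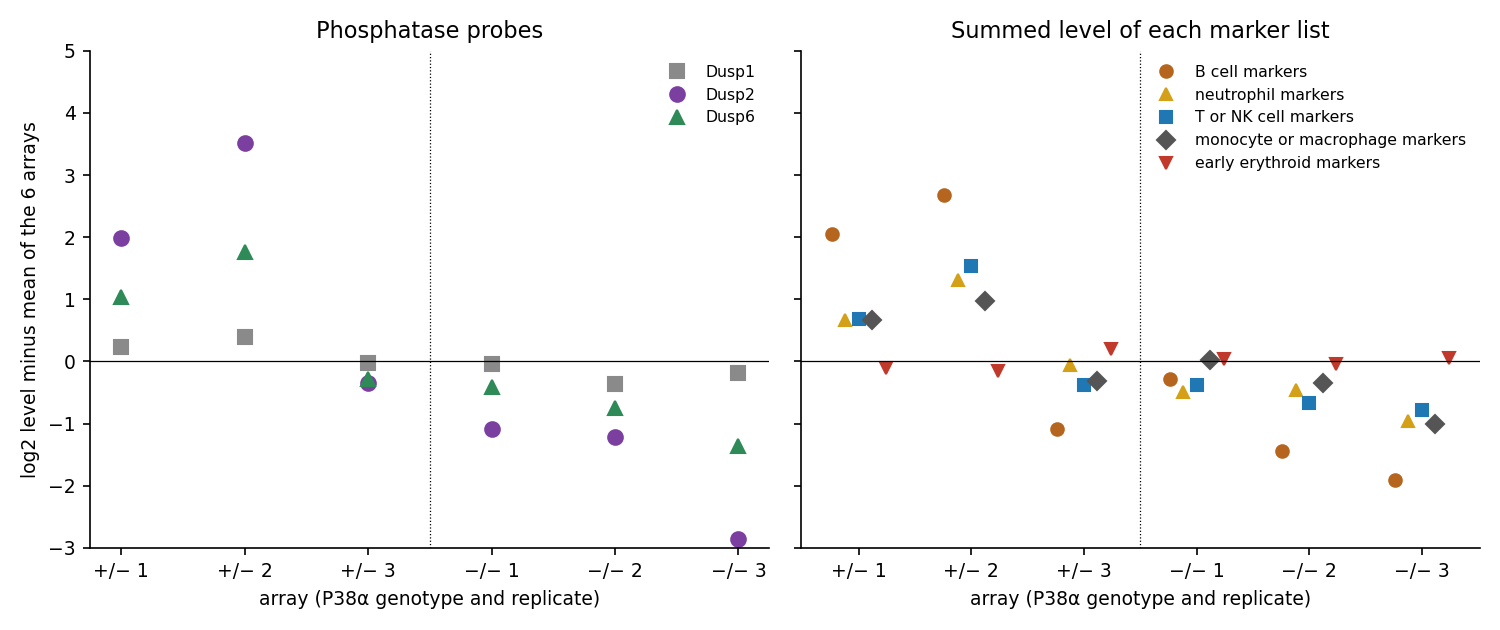
Log2 level minus the mean of the 6 arrays (y axis) on each array (x axis, P38α genotype and replicate) for the Dusp1, Dusp2 and Dusp6 probes (left) and for the summed level of 5 marker lists (right). Dusp6 and the neutrophil and B cell sums are highest on P38α+/− replicate 2 and lowest on P38α−/− replicate 3. Dusp2 is also highest on P38α+/− replicate 2, and on P38α−/− replicates 1 and 3 it was not well above background.

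The tested genes of the 2 further phosphatase lists did not show differences of the size seen at Dusp8 and Dusp16. Of 10 phosphatases of MAP kinases outside the DUSP family, 9 were tested, 0 were called by limma and 1 had an unadjusted p of at most 0.05. On every array labelled P38α−/− 2 were lower, as were 2816 of all 14207 tested genes, and the median log2 fold change was −0.05. The largest were Ppp2cb, a catalytic subunit of protein phosphatase 2A (−0.49 ± 0.24 SE), Ptpn5, a tyrosine phosphatase that binds ERK and P38 (−0.47 ± 0.20), and Ptpn7, its hematopoietic relative (−0.38 ± 0.32). Of 17 atypical dual-specificity phosphatases, which lack the kinase-binding domain, 4 were tested, 0 were called, 2 passed at the unadjusted p and 2 were lower on every labelled array, with a median of −0.78. Nothing is read for the atypical genes that could not be tested. Among them is Dusp3, well above background on 2 control arrays and 0 labelled arrays. For the phosphatase family itself the median over 6 tested genes was −0.08, with 2 genes called higher and 4 without a call.

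The MAP kinases and MAP2 kinases also held no call by limma, and the methods' t-test called 0 genes in any of the lists described here. Of 14 MAP kinases, 8 were tested, 4 passed limma's unadjusted p of 0.05, and the median log2 fold change was −0.18. On every array labelled P38α−/− 1 was higher and 2 were lower, against 1055 and 2816 of all 14207 tested genes. The largest differences were at Nlk, an atypical MAP kinase (−1.28 ± 0.35 SE, limma adjusted p = 0.143), Mapk13, which encodes P38δ (−1.15 ± 0.44, adjusted p = 0.214), and Mapk7, which encodes ERK5 (−0.61 ± 0.22, adjusted p = 0.203). Nlk was well above background on only 2 of the 3 labelled arrays, so its size is not a measured fold. The genotypes overlapped at Mapk13. Of 7 MAP2 kinases, 6 were tested, 0 were called, 3 passed at the unadjusted p and 3 (Map2k2, Map2k3 and Map2k6) were higher on every labelled array, with a median of 0.11. Map2k6, which encodes the P38 activator MKK6 and was singled out after its values were seen, read −4.96, −4.71 and −7.37 against −2.24, −2.39 and −2.59, a difference of 3.28 ± 0.69 on the log2 scale (adjusted p = 0.104) in which the lowest control was not well above background, so its size is not a measured fold.

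Genes read as output of the same kinases held no call either. Of 14 immediate early genes outside the DUSP family, 9 were tested, 0 were called by limma and 8 passed at the unadjusted p, with a median of −0.25. On every array labelled P38α−/− 3 were higher and 3 lower, against 1055 and 2816 of all 14207 tested genes. The 3 lower genes, Fos, Fosb and Nr4a1, entered the comparison through the controls. They were well above background on 2, 0 and 2 labelled arrays, so the sizes of their differences are not measured folds. Fos, an AP-1 subunit singled out after its values were seen, read −2.04, −1.25 and −3.96 against −4.63, −4.79 and −6.75, with the controls in the same order as for Dusp2. Fos was well above background on 2 of the 3 labelled arrays, so no order is read among those. Jun, another AP-1 subunit, read 0.71, 1.48 and −0.83 against 2.38, 2.04 and 1.61. Of 8 further ERK output genes 2 (Etv4 and Etv5) were tested, with 0 called and 0 at the unadjusted p, and of the 7 Sprouty and Spred inhibitors of ERK signalling 0 could be tested.

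**Figure D5:**
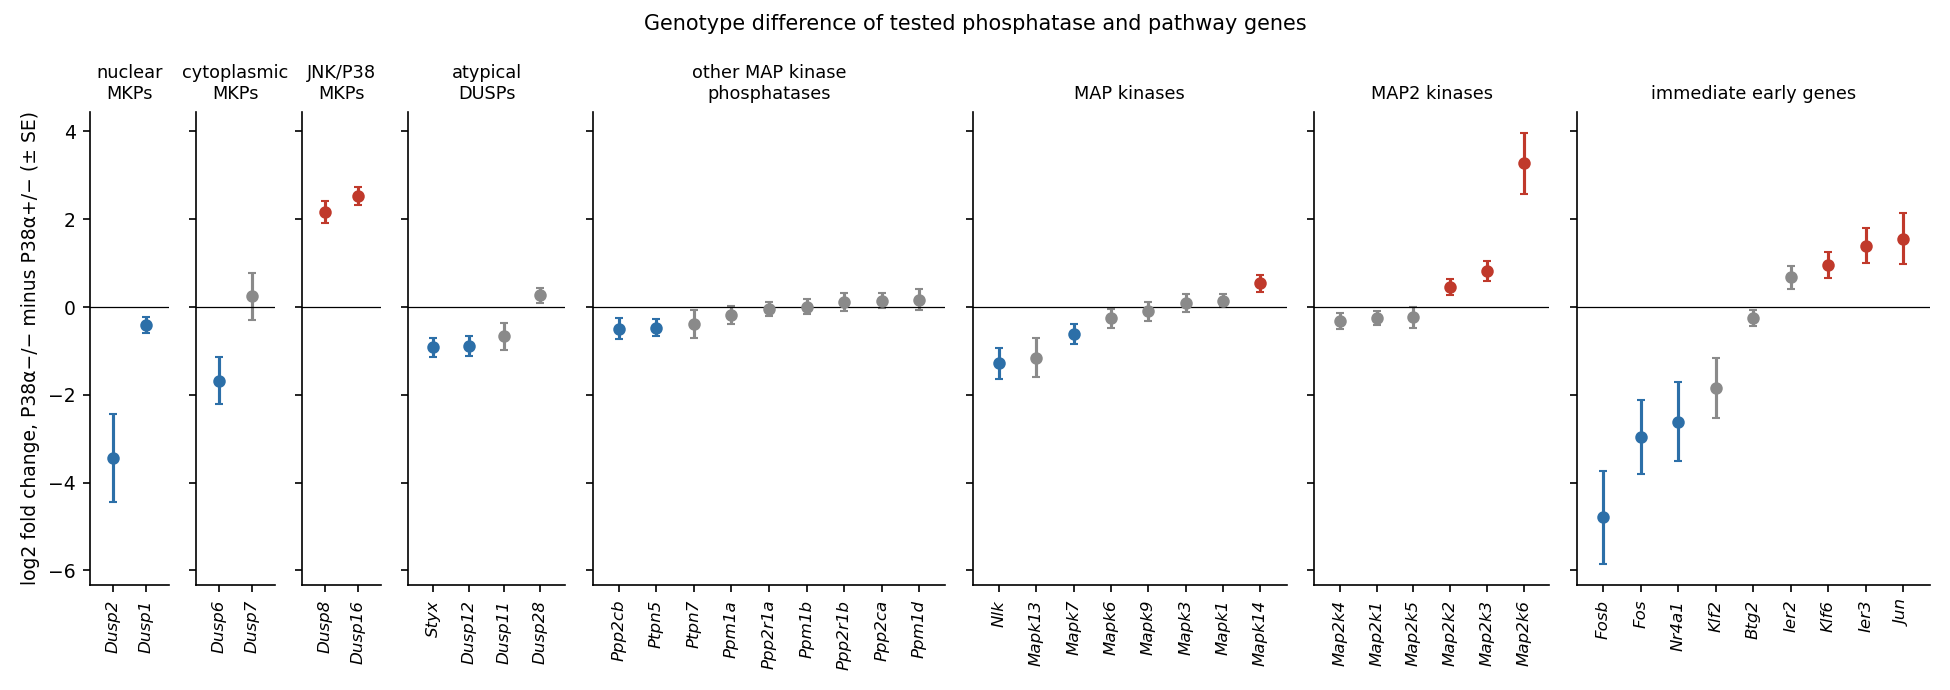
Log2 fold change (y axis, P38α−/− minus P38α+/−, with the SE of the fit) of the brightest tested probe of each tested gene in 8 lists, red where all P38α−/− arrays lay above all P38α+/− arrays, blue where all lay below and grey where they overlapped. Dusp8 and Dusp16 stand above 2 while the other phosphatases of MAP kinases lie between −0.49 and 0.17. Larger fitted differences, none of them called, are drawn at Map2k6 (3.28), Dusp2 (−3.43), Fos (−2.97), Nr4a1 (−2.61) and Fosb (−4.79). Each of these genes was not well above background on at least 1 array.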

How the data were processed

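RNA (10 ng) of sorted erythroblasts was hybridized to 1 array a mouse. The authors deposited Agilent Feature Extraction 10.7.3.1 scanner output, and the processed signal is an intensity that per the file headers had its background subtracted and was detrended, with no normalization between arrays. Their deposited table of normalized intensity values, whose steps are not given in the sources used here, was an alternative only. Its column for P38α−/− replicate 2 correlated less with its own scanner signal (Spearman 0.898) than the others.

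Log2 signals were scaled to the array's 75th percentile over probes well above background on all 6 arrays, control and outlier spots were left out, and genotypes were compared with limma 3.58.1 (R 4.3.3), with Benjamini-Hochberg adjustment over all tested probes. The script was checked on simulated data. Every probe of the 10 members was named, with the called genes of the companion lists, the 3 MAP kinases and the 3 other phosphatases with the largest fitted difference, and Mapk14. Members and lists were chosen with earlier results of these data known. A list's summed level is the log2 of the summed linear levels of its genes' brightest probes.

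Deviations from the genotype mean went together in same-numbered mice (r = 0.393, 0.242 and 0.389, and at most 0.061 between different numbers). These deviations cancel out within a genotype, so a positive r for the same number lowers the others. The series describes pairs, so the numbers were taken to pair the samples. The reported fit leaves the pairing out, as the study's test was unpaired, and the fit with the replicate block keeps it. The study calls P38α+/− mice littermate controls, but which of these mice shared a litter is not given in the sources used here. P38α−/− replicate 3 lay alone on a second slide. The number of arrays limits the precision. Alternatives covered scaling, background correction, the filter on dim probes, the authors' values, replicate and slide blocks, array weights, the methods' t-test and leaving out each array.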

Additional observations from a re-analysis of the deposited data

How the results depend on the processing

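The count of called phosphatase probes was 2 of 7, with 28 of all 18780 tested probes called. It was 4 with the percentile over all probes, where 809 of 18780 were called. With array weights it was 5, where 1892 of 18780 were called. It was 3 of 5 when only probes detected on every array were tested (Dusp8 probe a gained the call), where 70 of 15540 were called. The count was 0 when arrays were quantile normalized or centred on their E1A spike-in spots, or when dim probes were kept. It was also 0 with the values normalized by the authors, with the slide as a block or with the methods' t-test. When 1 array was left out it ran from 0 to 2. Unadjusted, 5 of the 7, and 9.06% of all tested probes, passed a limma p of 0.05 with the fold. With the replicate block (paired fit) the count stayed at 2, but the probes differed: Dusp8 probe a gained the call and Dusp16 probe b lost it, and over all probes 64 were called in place of 28. Probes called over all those tested ranged from 0 (no filter, slide block and leaving out any of 4 arrays) to 1892 (array weights). Dusp1 changed sign with the percentile over all probes (0.079), and Dusp7 probe b with array weights (−0.11) and over the left-out arrays (−0.28 to 0.68). The directions of Dusp2, Dusp6, Dusp8 and Dusp16 held in each of these settings where the probe was tested. The slide could only be fitted as leaving out P38α−/− replicate 3. In the companion lists, calls of each gene's brightest probe were counted under some of these settings only. Besides the methods' t-test, these were the percentile over all probes, quantile normalization, E1A centring and the replicate block. Calls appeared with the percentile over all probes in the immediate early genes (6), B cell (3), MAP2 kinase (2) and neutrophil (2) lists. They also appeared with E1A centring in the immediate early genes (1), and with the replicate block among early erythroid (1) and neutrophil (1) markers. The causes were not tested. Signal limits Dusp4, Dusp5, Dusp9 and Dusp10, which were not above background on most arrays.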
